A study of Mus musculus with 66 samples.

Results

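The Trim gene family comprised the 58 genes, of 18193 measured genes with a single symbol in the array annotation, whose symbol is Trim followed by a number and an optional letter. They were read by 111 probe sets, and each gene was represented by its brightest probe set by the mean over the 66 arrays. The family was selected on the knockout minus wild-type differences at PND1 to PND4 set against the 7 other ages, so those differences are given as a description and no test is read from them. The 53 other probe sets of the members had the same fit, and those of some named members are given beside them.

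RNA from homogenised mouse lung was measured on Affymetrix arrays in 22 groups of 3 biological replicates, 1 array each. Wild-type mice (Nrf2+/+) and knockout mice (Nrf2-/-, which lack the main transcription factor of the antioxidant response) were each sampled at 4 embryonic ages (E13.5, E15.5, E17.5, with E18.5 the last), at 5 neonatal ages (PND0 to PND4, PND standing for postnatal day), as juveniles at PND14 and as adults at PND42. Each E13.5 sample combined 2 to 3 lungs. The dams and postnatal mice of every group had the same AIN-76A diet, and neither strain nor sex was among the labels used here.

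TRIM proteins share a RING finger, a B-box and a coiled coil, and most act as E3 ubiquitin ligases that pass ubiquitin to target proteins. A large branch is induced by interferon and restricts viruses or tunes the sensing of viral RNA and DNA. The mouse genes related to the retrovirus restriction factor TRIM5 lie in a dense cluster on chromosome 7 and have been duplicated and lost repeatedly among rodents. Other branches act on chromatin, in muscle, on microtubules or in neurons. The lung meets inhaled microbes through its epithelium and its macrophages, and both cell types use TRIM proteins.

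Values are log2(signal + 16) after quantile normalization of all arrays, so the floor of the scale is 4, and a difference of 1 is a doubling of a bright gene and more than that of a dim one. The 24 arrays of PND1 to PND4 had been scaled differently before deposit (trimmed means of 171.7 to 307.1) from the 42 others (500), and both genotypes of every age lay within the same set. Nfe2l2, the gene that encodes Nrf2, lay at 10.49 to 12.25 in the 33 wild-type arrays and at 4.41 to 8.26 in the 33 knockout arrays, so the genotype labels did not overlap. The highest knockout value was in E13.5 replicate 1, and the other E13.5 knockout replicates were at 5.43 and 6.76. The lung epithelium markers Sftpc, Sftpb, Scgb1a1, Ager and Nkx2-1 had a mean level of 12.85 to 13.44 in every library of PND1 to PND4. At E13.5 that mean level was 9.05 to 11.49 in knockout, highest in replicate 1, and 7.65 to 8.14 in wild type. The knockout libraries labelled E18.5 resembled wild-type E17.5 (r = 0.9907 over all genes, which are not independent replicates) more than wild-type E18.5 (r = 0.9818), and those labelled E17.5 were slightly closer to wild-type E18.5 (r = 0.9897) than to wild-type E17.5 (r = 0.9884). An exchange of those labels would leave the mean over the 7 other ages as it is, and without both ages no member's difference over the remaining 5 ages exceeded 0.33 in size. Both of these settings were chosen after seeing the data. In whole lung, fewer cells of a type and less RNA per cell cannot be told apart.

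The 4 members with the widest genotype differences at PND1 to PND4 were Trim12c, Trim5, Trim34a and Trim68, all on chromosome 7. The RefSeq sequence around their start sites (GRCm38.p6, 250 bases before to 50 after the start) is shown because these genes carry the widest differences. Trim12c is at chr7:104353300-104353599 on the minus strand, Trim5 at chr7:104288057-104288356 on the minus strand, Trim34a at chr7:104244207-104244506 on the plus strand and Trim68 at chr7:102687278-102687577 on the minus strand. Each sequence is written 5′ to 3′ in the direction of the gene, and capitals mark matches to the core of the interferon-stimulated response element (GAAA, any 2 bases, GAAA) on either strand.
Trim12c: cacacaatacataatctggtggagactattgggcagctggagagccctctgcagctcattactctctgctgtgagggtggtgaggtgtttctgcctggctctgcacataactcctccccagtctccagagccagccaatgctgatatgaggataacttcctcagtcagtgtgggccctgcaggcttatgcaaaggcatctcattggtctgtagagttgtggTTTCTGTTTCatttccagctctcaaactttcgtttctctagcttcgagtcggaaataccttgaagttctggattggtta
Trim5: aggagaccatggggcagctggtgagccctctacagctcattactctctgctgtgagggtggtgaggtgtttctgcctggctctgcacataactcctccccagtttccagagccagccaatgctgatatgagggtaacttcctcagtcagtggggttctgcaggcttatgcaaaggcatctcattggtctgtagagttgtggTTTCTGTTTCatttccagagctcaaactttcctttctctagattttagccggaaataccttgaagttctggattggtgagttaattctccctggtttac
Trim34a: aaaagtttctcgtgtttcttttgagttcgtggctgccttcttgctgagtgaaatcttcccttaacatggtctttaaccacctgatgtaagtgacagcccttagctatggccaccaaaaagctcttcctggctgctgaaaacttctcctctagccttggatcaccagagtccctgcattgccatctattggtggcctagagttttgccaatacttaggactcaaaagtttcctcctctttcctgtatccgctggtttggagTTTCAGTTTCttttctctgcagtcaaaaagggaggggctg
Trim68: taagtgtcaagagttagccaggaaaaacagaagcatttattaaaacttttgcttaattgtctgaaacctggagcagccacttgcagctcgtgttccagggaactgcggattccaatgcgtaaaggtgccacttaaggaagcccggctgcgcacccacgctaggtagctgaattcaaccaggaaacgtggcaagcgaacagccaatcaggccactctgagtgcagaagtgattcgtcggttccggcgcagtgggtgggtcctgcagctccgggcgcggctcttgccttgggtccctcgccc

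The windows of Trim12c and Trim5 were 82.8% identical in a global alignment, against 72.9% for Trim12a and Trim12c and 67.1% for Trim12a and Trim5. Every pair that included Trim68, Trim34a, Trim6 or Trim30d was 46.8% to 54.4% identical. That core occurred in the windows of 9 of the 47 members that had one (Trim12a, Trim12c, Trim2, Trim21, Trim26, Trim30a, Trim30d, Trim34a and Trim5), and in 16.4% of the 61 member windows against 3.44% of all 32851 windows. Trim68 had no match. The letters TGACNNNGC, the core of the antioxidant response element that Nrf2 binds, occurred in 11.5% of the member windows and in 12.4% of all windows (both strands searched, and matches to the 2 cores overlapped in no member). The members with such a match were Trim15, Trim2, Trim59, Trim60, Trim61 and Trim7, and none of the 4 genes above was among them. A match describes letters only, and these windows come from the reference strain and not from the mice studied.

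Trim12c, a close relative of Trim5 that boosts interferon signalling, showed the widest difference in the family. In the 12 wild-type libraries of PND1 to PND4 its level ran from 4.08 through a median of 4.16 to 5.12, close to the floor. In the 12 knockout libraries it ran from 8.52 through 9.16 to 9.55. Every knockout library lay above every wild-type library, and the gap between the groups was 3.39. In the deposited signal this was 221 to 452 in knockout against 0.697 to 12.8 in wild type.

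At the 7 other ages Trim12c lay near the floor in both genotypes. Wild type ran from 4.09 through 4.19 to 5.28 and knockout from 4.03 through 4.26 to 5.49, and the groups overlapped at each of these ages. The knockout minus wild-type difference was 4.78 ± 0.14 (SE, 12 against 12 libraries) at PND1 to PND4 and 0.05 ± 0.11 (21 against 21) at the 7 other ages. By age it was 4.90 at PND1, 5.35 at PND2, 4.65 at PND3 and 4.21 at PND4, while PND0, a day before, gave 0.11 and PND14 gave -0.22. The step in the knockout thus lay between PND0 and PND1 and again between PND4 and PND14, where the array sets also change.

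Trim68, an E3 ligase described as a partner of the androgen receptor, was the other member that was clearly higher. Its level in wild type at PND1 to PND4 ran from 5.18 through 5.65 to 6.43, and in knockout from 7.20 through 7.82 to 8.31. No knockout library reached down to a wild-type one. At the 7 other ages the ranges were 5.52 to 6.54 and 4.97 to 6.61, and they overlapped. The difference was 2.20 ± 0.12 at PND1 to PND4 and -0.01 ± 0.09 elsewhere, with 2.33, 2.75, 1.77 and 1.94 at PND1, PND2, PND3 and PND4.

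Trim5, the rodent counterpart of the factor that blocks retroviral capsids in primates, showed the widest difference in the other direction. Wild type at PND1 to PND4 ran from 7.28 through 7.77 to 8.18, and knockout from 4.17 through 4.61 to 6.96. Again no library of one genotype entered the range of the other. At the 7 other ages wild type ran from 6.53 to 8.96 and knockout from 6.90 to 9.13, with medians of 8.11 and 8.09. The difference was -2.89 ± 0.18 at PND1 to PND4 and -0.05 ± 0.13 at the other ages.

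Trim34a, an interferon-induced neighbour of Trim5, followed Trim5 in direction. Its wild-type level at PND1 to PND4 ran from 8.08 through 8.39 to 8.74 and its knockout level from 5.26 through 5.71 to 7.57, with no overlap. The difference was -2.51 ± 0.14 there and 0.02 ± 0.11 at the 7 other ages, where both genotypes reached their highest level at PND42 (9.64 to 9.86 in wild type and 9.87 to 10.02 in knockout). At E18.5 Trim5 differed by -1.07 and Trim34a by -0.94, in the knockout libraries whose age label is in doubt. With the knockout labels of E17.5 and E18.5 exchanged, the E18.5 differences were -0.55 and -0.03, and those at E17.5 were -0.63 and -0.40.

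Trim30d belongs with Trim30a to the cluster's interferon-induced Trim30 genes. At PND1 to PND4 its level ran from 5.91 through 6.29 to 6.56 in wild type and from 4.21 through 4.80 to 5.88 in knockout. The groups did not overlap, with a gap of 0.04 between them. The difference was -1.36 ± 0.16 at PND1 to PND4 and 0.22 ± 0.12 at the 7 other ages. Trim6, which builds free ubiquitin chains in interferon signalling, had a smaller difference of -0.58 ± 0.12 against 0.23 ± 0.09, and its ranges of 5.33 to 6.60 in wild type and 4.99 to 5.98 in knockout overlapped.

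**Figure D1:**
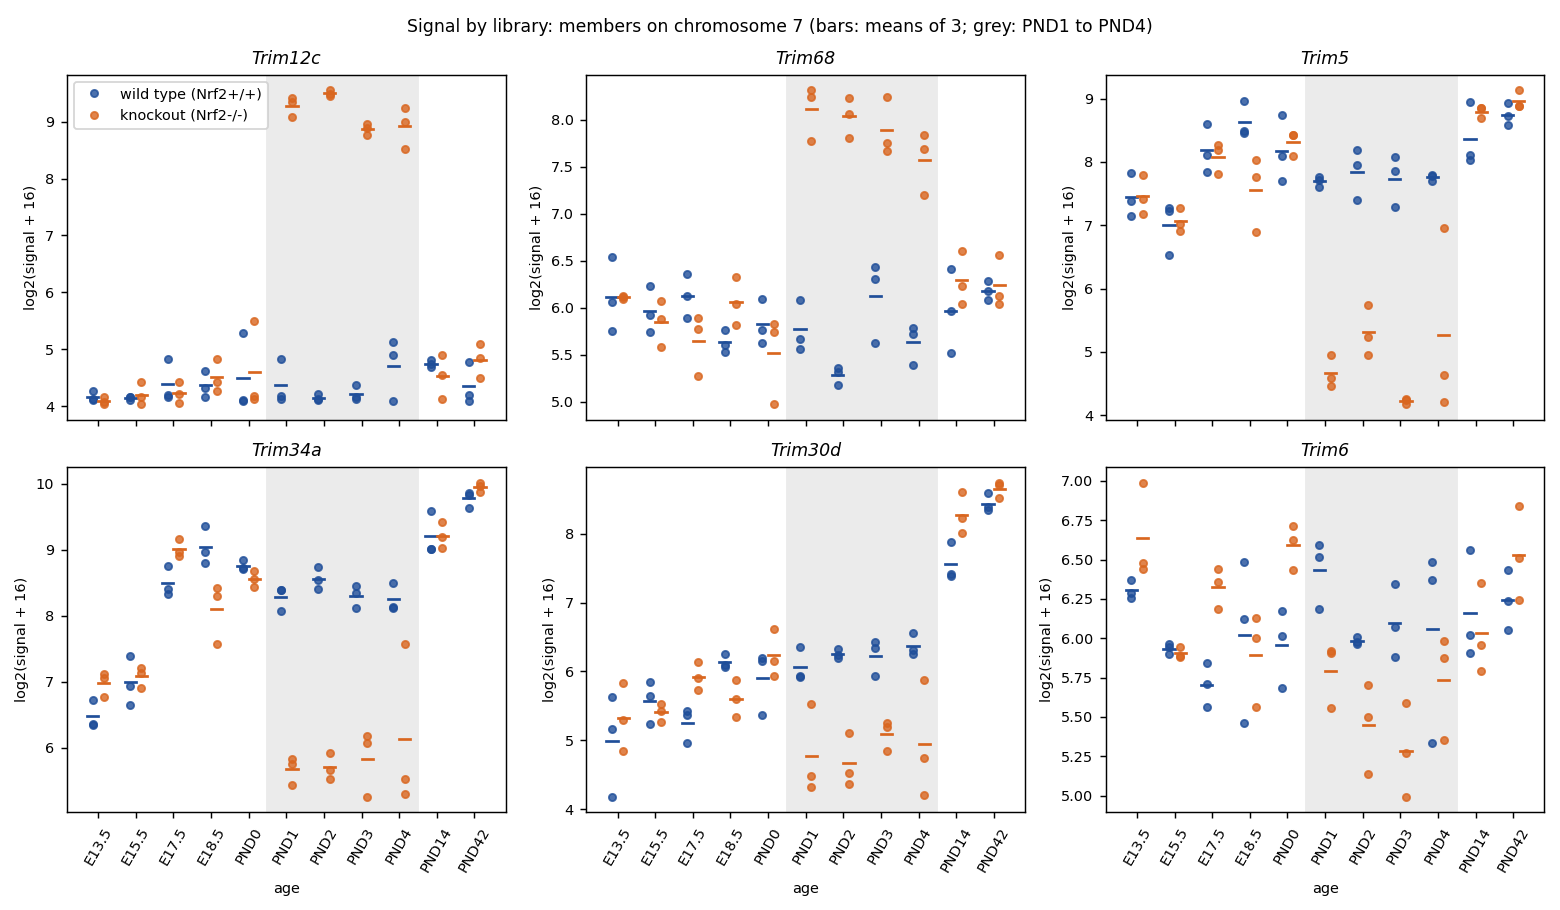
Level of 6 Trim genes of chromosome 7 (y axis, log2(signal + 16), own scale per gene) in every library at 11 ages (x axis); points are libraries, bars are means of 3, and grey marks PND1 to PND4. Knockout Trim12c lies at 8.52 to 9.55 and knockout Trim68 at 7.20 to 8.31 within the grey band only, while Trim5, Trim34a and Trim30d lie lower there, and 1 knockout point at PND4 sits between the genotypes.

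One library departed from its group in these genes. In knockout PND4 replicate 1, Trim5 was at 6.96 against 4.21 and 4.63 in the other two, Trim34a at 7.57 against 5.53 and 5.30, and Trim30d at 5.88 against 4.74 and 4.21. The same library had the lowest Trim12c (8.52) and the lowest Trim68 (7.20) of all 12 knockout libraries. It therefore lay towards wild type at all 5 genes, and without it the differences at PND1 to PND4 were -3.10 for Trim5, -2.69 for Trim34a, -1.48 for Trim30d, 4.83 for Trim12c and 2.24 for Trim68. Over all genes its mean correlation with the other replicates was 0.9817, against 0.9808 and 0.9811 for those replicates, and its Nfe2l2 was at 5.56, within the knockout range.

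To see whether other genes shared that behaviour, all genes were taken in which the other 11 knockout libraries lay beyond all 12 wild-type libraries and the means differed by at least 1. There were 23 such genes, 5 of them Trim genes and 6 of them on chromosome 7. In 6 of the 23, knockout PND4 replicate 1 lay nearer to the wild-type mean of PND4 than to the mean of the other PND4 knockouts: Trim5, Trim34a, Trim30d, Rrp8, Veph1 and Rarres1. Rrp8, a nucleolar methyltransferase gene, is on chromosome 7, beyond Cavin3, and stood at 8.14 in this library against 7.28 in the other knockouts and 8.54 in wild type. Veph1 and Rarres1 are on chromosome 3: Veph1 stood at 6.98 against 8.10 and 6.89, and Rarres1 at 6.10 against 5.42 and 6.74. In H2-Ea, an MHC class II gene on chromosome 17, the same library stood at 8.79 with the other knockouts at 8.63 and wild type at 5.38. Rrp8, Veph1, Rarres1 and H2-Ea were chosen after their values were seen.

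Read by gene order, the wide differences lay mostly on chromosome 7. The RefSeq order placed 13 members on chromosome 7, and 5 of these differed by at least 1 between PND1 to PND4 and the 7 other ages, beside 1 of the 45 members elsewhere in the genome that could be placed. The 10 measured genes on each side of Trim12c, Trim5, Trim34a and Trim68 formed a stretch of 37 genes. It held 9 members, 5 of them with a size of at least 1, and 28 other genes, of which 1 reached that size. That gene was Hbb-y, an embryonic globin, at -1.19 ± 0.27 at PND1 to PND4 and 0.23 at the other ages. Smaller differences at PND1 to PND4 included Pgap2 (-0.48 ± 0.09) and Rrm1 (0.39 ± 0.11). Many of the other genes are olfactory receptor genes. The levels of these neighbours were not examined, so a small difference there cannot be told from an absent signal. Among all 18193 genes 1.47% reached a size of 1, and 12.6% passed an adjusted p of 0.05 for the change between the 2 groups of ages, beside 10 of 58 members.

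Neighbouring members went in opposite directions. In chromosome order Trim21 (0.15) lay beside Trim68 (2.20). Beyond a run of olfactory receptor, globin and ubiquilin genes came the cluster, where Trim6 (-0.58), Trim34a (-2.51), Trim5 (-2.89), Trim12a (-0.22), Trim12c (4.78), Trim30a (0.18) and Trim30d (-1.36) followed, all as differences at PND1 to PND4. Trim12a sits between Trim5 and Trim12c and shares much of their sequence. Its wild-type range of 4.15 to 5.75 and its knockout range of 4.26 to 5.61 covered each other. Both lie near the floor of 4, so this overlap says little about a fall in Trim12a. Trim21, the cytosolic receptor for antibody-coated virus, and Trim30a, which dampens Toll-like receptor signalling, likewise overlapped. Trim3 (0.41), Trim66 (-0.12), Trim72 (0.51) and Trim28 (-0.10) lie elsewhere on the chromosome.

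**Figure D2:**
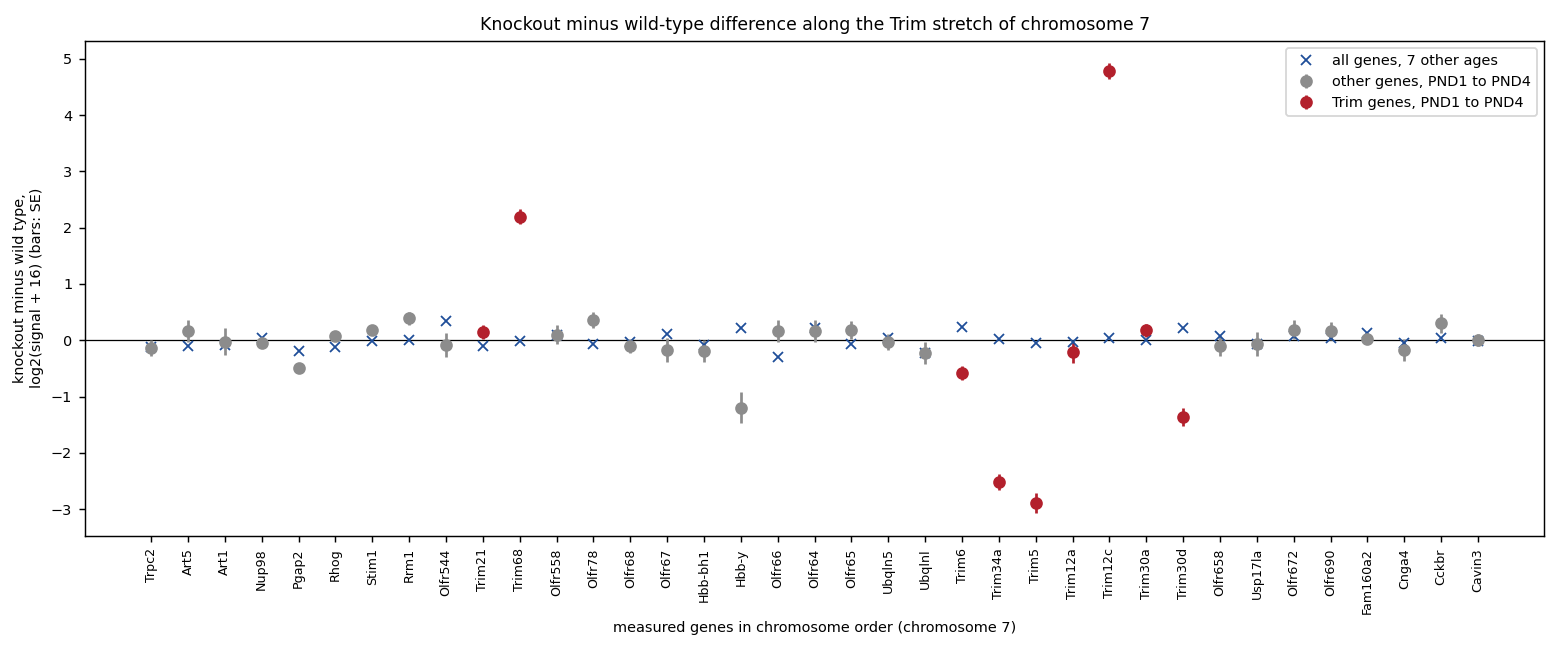
Knockout minus wild-type difference (y axis, log2(signal + 16)) of 37 measured genes in chromosome 7 order (x axis, not to genomic scale); circles with SE bars are PND1 to PND4, red for Trim genes, and crosses are the 7 other ages. The circles of Trim12c (4.78), Trim68 (2.20), Trim34a (-2.51), Trim5 (-2.89) and Trim30d (-1.36) leave the zero line and most genes between them do not. Many of those are olfactory receptor genes, and their levels are not shown.

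The other probe sets gave a mixed picture, and each reads its own stretch of a transcript. Trim5 and Trim68 had no other probe set. The dimmer probe set of Trim12c differed by 0.58 ± 0.17 at PND1 to PND4 and -0.20 at the other ages, the same direction at a smaller size. For Trim34a the dimmer probe set was higher in knockout, at 1.05 ± 0.18 against -2.51 for the brightest, so the direction depends on which probe set is read. With the mean of all probe sets of a gene, Trim34a was at -0.73, Trim12c at 2.68, Trim30d at -0.92 and Trim17 at -0.06. Trim30d had -0.48 at its dimmer probe set, and Trim6 had -0.89. The dimmer probe set of Trim17 was at 0.33 ± 0.19 against -0.45 for its brightest. A dimmer probe set of Trim2 was at -0.09 ± 0.07 against -0.25 for its brightest. The probe sets that carry both Trim34b and Trim34a gave -0.09 and 0.32, and the one shared by Trim30d and Trim30a gave -0.39. Near-identical copies within the cluster can share probes, so the assignment of a signal to 1 gene is uncertain for these members. Of the 53 other probe sets, 0 reached a size of 1 between PND1 to PND4 and the other ages. At PND1 to PND4, 16 of them passed an adjusted p of 0.05 in the limma fit, beside 16.2% of all genes.

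The 12 knockout libraries of PND1 to PND4 lay beyond all 12 wild-type libraries in 5 of 58 members (Trim12c and Trim68 above, Trim5, Trim34a and Trim30d below), against 0.489% of all genes. At PND1 to PND4, 14 of 58 members passed an adjusted p of 0.05 in the limma fit, beside 16.2% of all genes, 7 higher (7.84% of all genes) and 7 lower (8.39%), and nothing is read from these counts because the rule used this contrast. Over the 7 other ages 0 of 58 passed by their brightest probe sets, beside 6.5% of all genes, and these lay between -0.44 and 0.37. The dimmer probe set of Trim16 did pass over those ages, at -0.56 ± 0.12 against -0.13 for its brightest. At PND1 to PND4 that dimmer probe set was at -0.01 ± 0.16 and did not pass. Single ages gave 0 of 58 at E13.5 (1.96% of all genes), 0 at E15.5 (0.148%) and 0 at E17.5 (1.64%), then 6 at E18.5 (12.4%) and 9 at PND0 (14.5%). At PND1 it was 6 (2.56%), at PND2 8 (5.97%), at PND3 10 (10.8%) and at PND4 6 (0.643%), and Trim12c, Trim68, Trim5, Trim34a and Trim30d were among them each time. PND14 had 4 (9.38%) and PND42 had 5 (4.8%), and none of the 5 genes just named was among them. At E18.5, where the age label of the knockout libraries is in doubt, Trim5 and Trim34a were among the 6 that passed, both lower. The median difference of the members at PND1 to PND4 was -0.02, next to 0.00 over all genes, and 38 of the 58 members differed by less than 0.25 in size there.

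Away from chromosome 7 the member past 1 was Trim63 (MuRF1, a ligase that marks muscle proteins for breakdown), with -0.88 ± 0.38 at PND1 to PND4 and 0.37 ± 0.28 at the other ages. Its level ran from 6.60 through 7.55 to 10.52 in wild-type libraries of PND1 to PND4 and from 5.93 through 7.07 to 9.00 in knockout, a wide overlap. The highest wild-type values were 9.97 in PND1 replicate 1, 10.52 in PND2 replicate 1 and 9.90 in PND4 replicate 3. The mean level of the heart muscle markers (Myh6, Myl7, Nppa, Myl4, Tnni3 and Myh7) in those libraries was 12.50, 13.34 and 13.05, within a wild-type range at these ages of 10.28 to 13.34, and its part in the difference was not tested. The skeletal muscle markers were highest in knockout PND3 replicate 2, at 12.56 against 6.25 to 10.15 in the other knockout libraries of these ages, and Trim63 was at 8.73 there and its muscle relative Trim54 at 8.62, its highest level in any library of these ages.

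Further members differed by less. Trim36, which binds microtubules, had -0.33 ± 0.18 at PND1 to PND4 and 0.31 ± 0.14 at the other ages, and Trim17, a neuronal ligase, -0.45 ± 0.16 and 0.06 ± 0.12. Trim61 had -0.21 ± 0.14 and 0.25 ± 0.11, and its promoter window is the one that RefSeq also lists for Trim60. Trim32, a ligase with NHL repeats linked to muscle disease, had 0.40 ± 0.06 and -0.03 ± 0.05, with the genotype order turning between ages. Its difference was 0.57 at E18.5 (where the age label is in doubt), -0.43 at PND0, 0.75 at PND1, 0.52 at PND2, -0.19 at PND3, 0.54 at PND4 and 0.40 at PND42. Trim8, which acts on cytokine signalling, gave 0.42, 0.43 and 0.51 at its 3 probe sets.

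**Figure D3:**
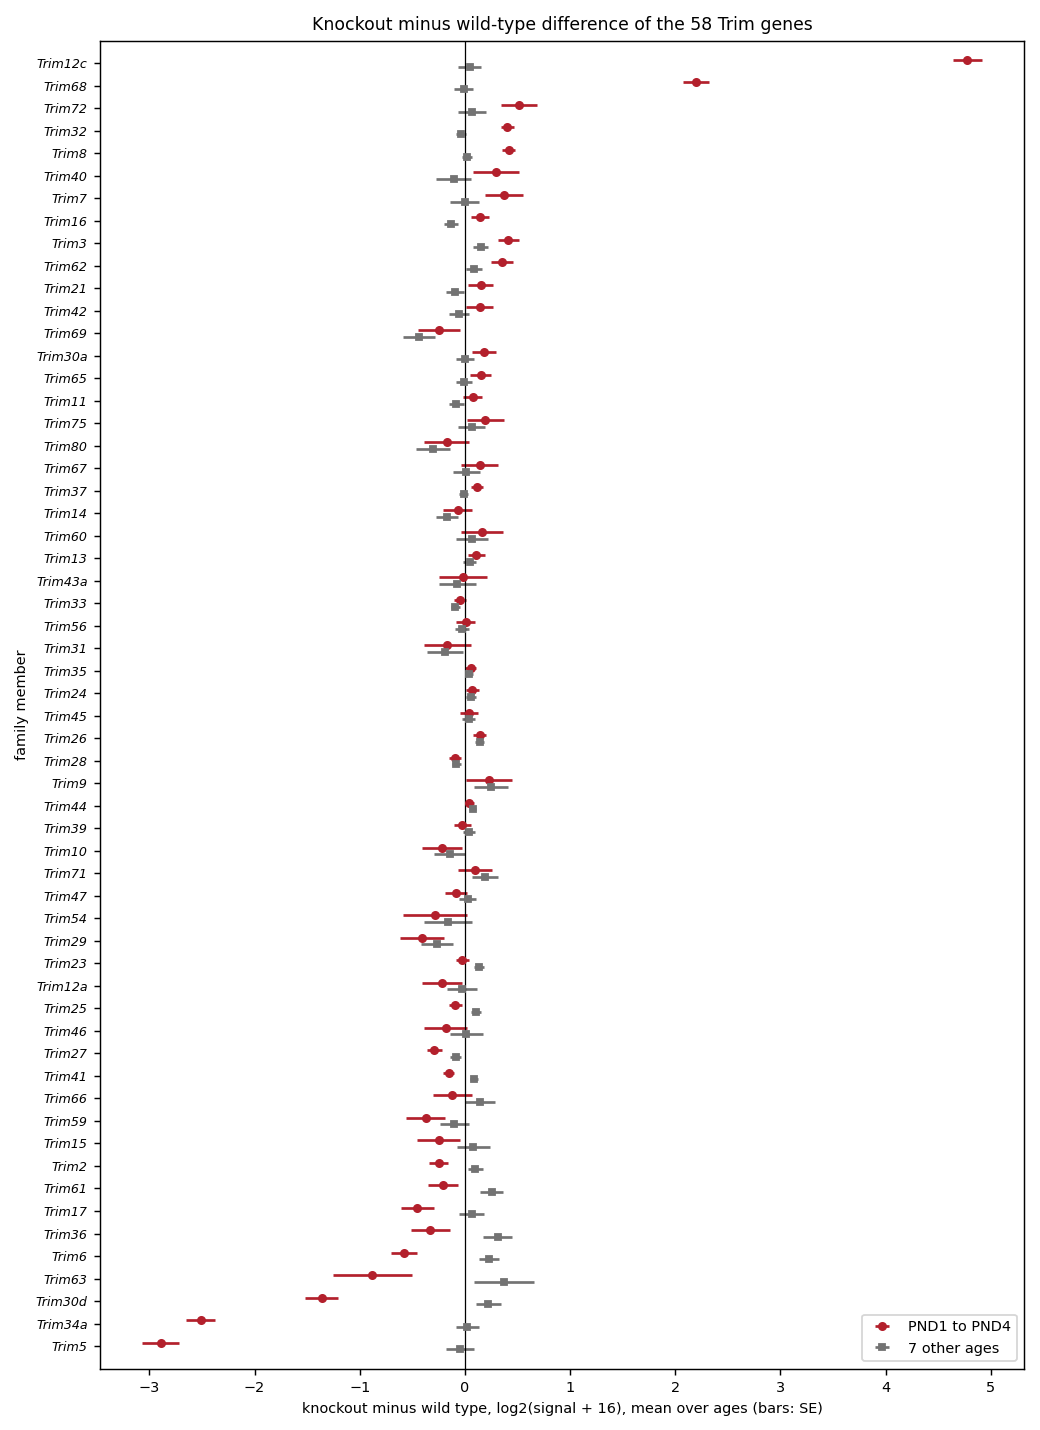
Knockout minus wild-type difference (x axis, log2(signal + 16)) of the 58 members (y axis); red circles are PND1 to PND4 and grey squares the 7 other ages, with SE bars. The grey squares stay between -0.44 and 0.37, and Trim12c (4.78), Trim68 (2.20), Trim30d (-1.36), Trim34a (-2.51) and Trim5 (-2.89) stand furthest out among the red circles.

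The course of the family over wild-type development was not used by the rule and could be tested. With limma's F test over the 7 ages of the second array set, 33 of 58 members changed with age at an adjusted p of 0.05, beside 66% of all genes. Over PND1 to PND4, 6 members changed (Trim13, Trim16, Trim28, Trim32, Trim59 and Trim8), beside 14.7% of all genes. The steps from E15.5 to PND0 and from PND0 to PND42 share the PND0 libraries, and neither crosses the array sets.

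From E15.5 to PND0, the run-up to birth, 13 wild-type members rose and 7 fell, beside 17.9% and 19% of all genes. Among the 20 measured members of the list of innate immunity and virus restriction, 8 rose and 1 fell, with a median of 0.34 against -0.02 over all genes. Trim34a rose from 6.93, 7.39 and 6.65 at E15.5 to 8.70, 8.73 and 8.84 at PND0, a step of 1.76 ± 0.28 (limma adjusted p = 1.3e-06). With the mean of its probe sets the step was 0.82 (limma adjusted p = 0.0017), and its dimmer probe set was at 5.38, 4.33 and 4.26 and then at 4.23, 4.78 and 4.58, with overlap. Trim30a rose by 1.29 ± 0.23 (limma adjusted p = 9.7e-06) and Trim5 by 1.18 ± 0.35 (limma adjusted p = 0.008). The call for Trim5 was lost in 3 of 17 alternatives, among them the fits without wild-type E15.5 replicate 2 (limma adjusted p = 0.076) or PND0 replicate 3 (0.094). Trim56, Trim8, Trim21, Trim25 and Trim26 made up the rest of the rising members of that list, at 0.48 to 0.97.

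Those antiviral members rose beside the interferon response genes, of which 9 of 12 measured rose and 0 fell at the same step with limma at an adjusted p of 0.05 (Usp18 2.03, Ifit3 2.17, Ifit1 1.86). Among the RNA and DNA sensors 6 of 12 rose, led by Ifih1 (MDA5) at 1.74 and Irf7 at 1.68, and Cgas fell by 0.79. Macrophage markers rose in 4 of 7, and their mean level went from 7.39 to 7.54 at E15.5 to 9.33 to 9.55 at PND0. Markers of other tissues rose as well, 4 of 6 of skeletal muscle (median 3.06) and 3 of 5 of squamous oesophagus (2.34). Among markers of other cells of the lung, 3 of 5 of lung epithelium (3.11) and 2 of 3 of ciliated cells (0.74) rose. The part of these cell types in the rise of the Trim genes was not tested.

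The 7 members that fell over the same step were Trim59, Trim32, Trim71, Trim28, Trim45, Trim24 and, from the innate immunity list, Trim27 (-0.76). Trim59, a membrane-anchored ligase tied to cell division, fell from 11.08, 11.21 and 11.52 to 8.76, 9.34 and 8.71, a step of -2.33 ± 0.37 (limma adjusted p = 1.3e-06). Trim71 (LIN41), a stem cell NHL protein and target of let-7, was at 7.34, 7.30 and 7.37 before and at 6.42, 6.33 and 6.17 after, -1.03 ± 0.33 (limma adjusted p = 0.012, but 0.077 with a pseudocount of 1 and 0.052 with arrays scaled to a common trimmed mean). Trim32 fell by 1.13 ± 0.13 (limma adjusted p = 2.6e-10). Its NHL relative Trim3, a ligase of the nervous system, went the other way, from 8.44, 8.51 and 8.22 to 10.44, 9.90 and 10.02, a rise of 1.73 ± 0.20 (limma adjusted p = 4.1e-10). Of the 5 NHL or filamin repeat members 1 rose and 3 fell, the third being Trim45 at -0.80.

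The TIF1 group of chromatin cofactors moved downward in part. Trim28 (KAP1), the corepressor that silences retroelements, was at 12.74, 12.77 and 12.84 at E15.5, at 11.73, 11.88 and 11.72 at PND0 and at 11.09, 10.89 and 11.08 at PND42. It fell by 1.00 ± 0.12 to PND0 (limma adjusted p = 1e-09) and by 0.76 ± 0.12 after it (limma adjusted p = 1.6e-06). Trim24 fell by 0.46 before birth (limma adjusted p = 0.0053), and Trim33 by 0.36 after it (limma adjusted p = 0.017). Trim66 had 0.34 ± 0.37 and -0.20 ± 0.37 and passed neither test.

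From PND0 to PND42, 9 wild-type members rose and 7 fell, beside 13.4% and 12.4% of all genes. Of the innate immunity list, 8 of 20 rose and 1 fell, with a median of 0.37 against 0.00 over all genes. Trim30d had the largest rise, from 6.15, 6.20 and 5.36 at PND0 to 8.34, 8.38 and 8.58 at PND42, 2.53 ± 0.31 (limma adjusted p = 9.1e-09). Trim30a rose by 1.70 ± 0.23 and Trim34a by 1.02 ± 0.28 (limma adjusted p = 7.2e-08 and 0.0059). Trim14, an adaptor of the MAVS pathway, rose from 6.51, 6.80 and 6.26 to 7.80, 7.85 and 8.33, 1.47 ± 0.27 (limma adjusted p = 4.4e-05), or 0.79 with the mean of its probe sets (limma adjusted p = 0.018). Trim5 was at 7.70, 8.09 and 8.74 and then at 8.72, 8.58 and 8.94, which did not pass (0.57 ± 0.35). Of the interferon response genes 5 of 12 rose, with Gbp2 at 2.77, and of the macrophage markers 5 of 7.

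The 7 members that fell after birth were Trim29, Trim67, Trim59, Trim23, Trim28, Trim33 and, from the innate immunity list, Trim27 (-0.50). Trim29, found in squamous epithelium and lung macrophages, was at 8.17, 7.77 and 7.92 at PND0 and at 6.41, 6.09 and 6.49 at PND42, a fall of 1.62 ± 0.41 (limma adjusted p = 0.0024). Squamous oesophagus markers (Krt4, Krt13, Krt5, Krt14 and Trp63) fell in 5 of 5 at this step, from a mean level of 9.94 to 10.08 to one of 5.76 to 7.22, and their part in the fall of Trim29 was not tested. Trim67, a neuronal member, fell by 1.53 ± 0.34 (limma adjusted p = 0.00059). Trim23, which joins a RING to an ARF GTPase domain, fell by 1.02 ± 0.12 (limma adjusted p = 7.2e-09), or by 0.62 with the mean of its probe sets (limma adjusted p = 0.0045). Trim59 fell by 1.21 ± 0.37 (limma adjusted p = 0.015). The call for Trim59 was lost without wild-type PND0 replicate 2 (limma adjusted p = 0.098) or PND42 replicate 2 (0.064), and with the mean of its probe sets (0.13). T cell and thymus markers (Cd3e, Cd3g, Cd8b1 and Rag1) had a mean level of 10.69 in wild-type PND0 replicate 2. In PND0 replicates 1 and 3 they were at 4.88 and 7.86, and their part in the level of Trim59 was not tested.

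**Figure D4:**
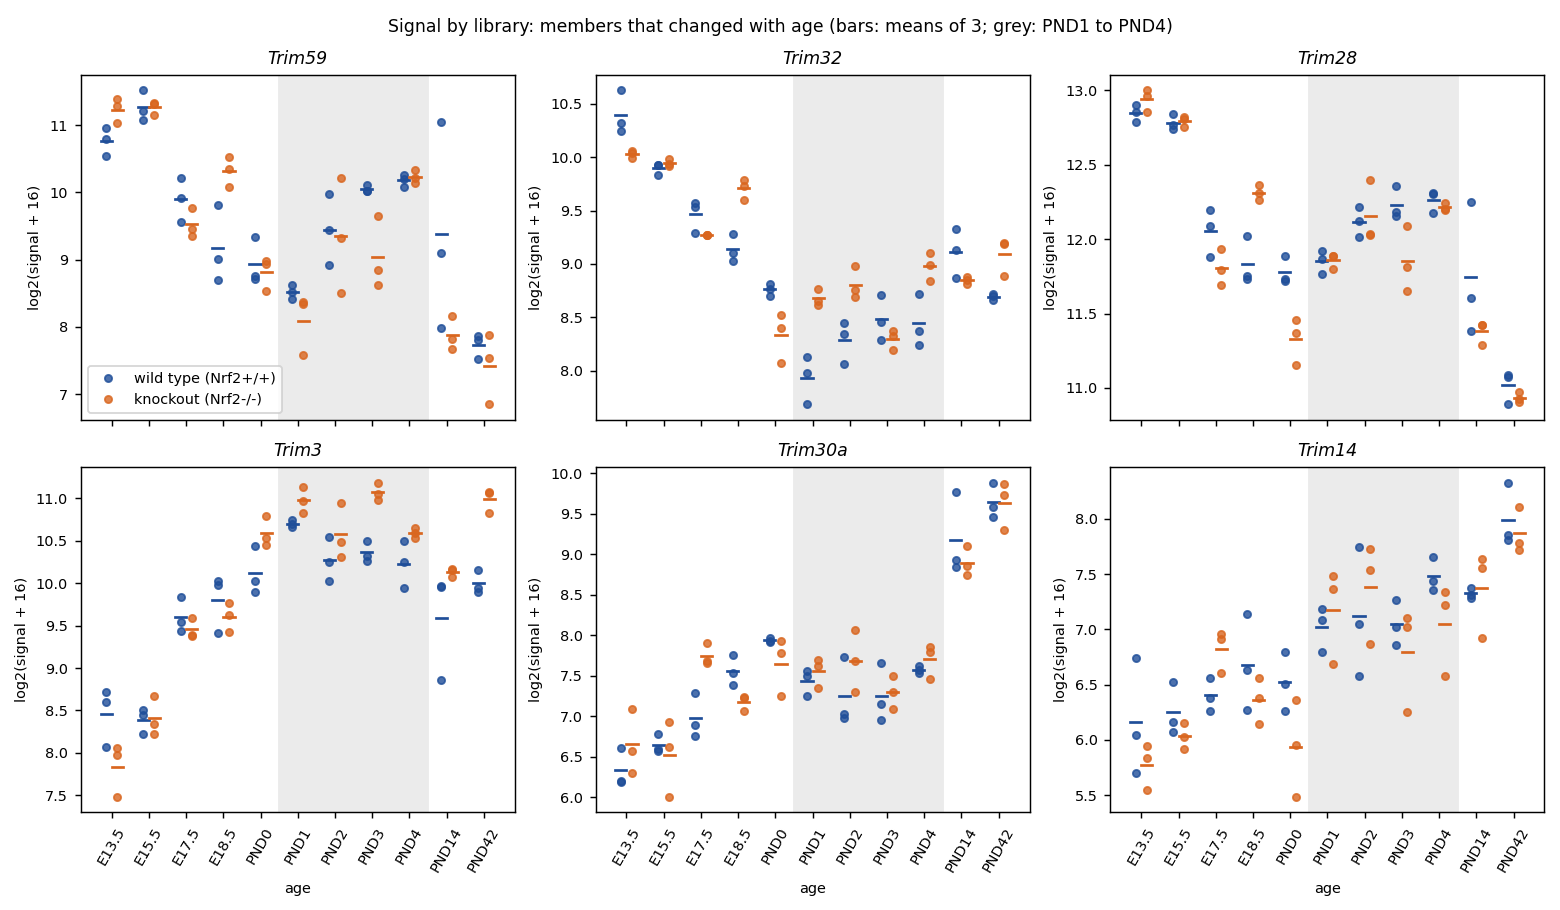
Level of 6 members that changed with age (y axis, log2(signal + 16), own scale per gene) in every library at 11 ages (x axis); points are libraries, bars are means of 3, and grey marks PND1 to PND4. Trim59, Trim32 and Trim28 are highest at E13.5 and E15.5, Trim3 is higher from E17.5 on, and Trim30a and Trim14 reach their highest means at PND42 in both genotypes.

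Within the first days, from PND1 to PND4, 3 wild-type members rose and 5 fell, beside 7.33% and 6.09% of all genes. Trim59 rose from 8.41, 8.52 and 8.63 to 10.19, 10.26 and 10.08, 1.66 ± 0.37 (limma adjusted p = 0.0015). Trim32 rose by 0.51 ± 0.13 (limma adjusted p = 0.004) and Trim28 by 0.41 ± 0.12 (limma adjusted p = 0.015). Trim59 thus fell from E15.5 to PND0 and rose from PND1 to PND4. Its adult level was below that of PND0, a fall whose call was lost in 3 of 17 alternatives. PND4 and PND42 lie in different array sets and were not compared. Trim12a fell from 5.72, 5.75 and 5.63 to 4.48, 4.57 and 4.36 (-1.23 ± 0.38, limma adjusted p = 0.027). Trim16, an autophagy and stress-response member, fell by 0.62, Trim13, a ligase of the endoplasmic reticulum, by 0.56, Trim8 by 0.49 and Trim25, which activates RIG-I, by 0.36 (limma adjusted p of 0.013, 0.017, 0.0054 and 0.043).

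The remaining branches gave a mixed picture. Of the 4 membrane-anchored or organelle members, 2 rose and 1 fell from E15.5 to PND0 (Trim13 and Trim37 up, Trim59 down) and 2 fell from PND0 to PND42 (Trim59 and Trim23), with medians of 0.39 and -0.68. Of the 4 microtubule and neuronal members only Trim67 passed a wild-type step, and their median from PND1 to PND4 was 0.79 with none past the test there; of the 3 muscle members none did, and Trim10, an erythroid member, had -0.45 and 0.03 at the first and second of those steps.

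The small steps between PND1 and PND4 depended on single libraries and in part on the processing. The count of 8 members was 4 to 5 when any of the 6 wild-type libraries of PND1 and PND4 was left out, and 2 on the signals as deposited. Trim12a lost its call without each of the 6 in turn (limma adjusted p of 0.056 to 0.09), and Trim28, Trim32, Trim16, Trim13 and Trim8 lost theirs without at least 1 of them. With the mean of all probe sets of a gene, Trim12a had -0.51 and Trim16 -0.40, and neither passed (limma adjusted p of 0.24 and 0.3). Trim59 kept its call for this step in all alternatives run.

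In knockout lung 14 members rose and 7 fell from E15.5 to PND0, beside 21.3% and 24.3% of all genes. Trim3 rose by 2.18 ± 0.20 (limma adjusted p = 1.4e-13), Trim16 by 1.90 ± 0.17 (limma adjusted p = 2.9e-13), and Trim59 fell by 2.45 ± 0.37 (limma adjusted p = 2.5e-07). From PND0 to PND42, 16 rose and 8 fell, beside 21.4% and 14.2%, with Trim30d at 2.42 ± 0.31 and Trim30a at 1.98 ± 0.23 (limma adjusted p = 1.3e-08 and 7.9e-10), and with Trim67 falling by 1.75 ± 0.34 (limma adjusted p = 5.3e-05). Trim16 rose by 0.67 ± 0.17 in wild type and fell by 0.84 ± 0.17 in knockout over that step (limma adjusted p = 0.0034 and 0.00011), and the difference between the steps was not tested. In knockout its dimmer probe set was at 7.20, 7.36 and 7.35 and then at 7.19, 7.24 and 7.52, with overlap. The knockout fall therefore rests on the brightest probe set. In wild type the dimmer probe set was at 6.97, 7.19 and 6.93 and then at 9.38, 7.52 and 9.14. From PND1 to PND4, 3 knockout members rose (Trim59 2.14, Trim67 1.33 and Trim28 0.36) and 0 fell, beside 4.9% and 5.99% of all genes.

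Other genes of the pathway were compared between genotypes at the same ages, and their counts too are descriptions beside the 16.2% of all genes that passed. Among 5 TRIM genes with other symbols, 1 was lower in knockout at PND1 to PND4 (Mid1, -0.86) and 4 did not pass. The ubiquitin-conjugating enzymes that supply the ligases had 2 of 11 higher (Ube2d3 0.23 and Ube2e1 0.18). The RNA and DNA sensing genes had 4 of 12 higher, up to 0.50 for Irf7, and 1 lower (Mavs, -0.55). The interferon response genes had 3 of 12 higher (Ifit3 0.59, Usp18 0.34 and Stat2 0.34) and 0 lower. Their median was 0.20, next to 0.00 over all genes. At the 7 other ages 0 of 12 passed, beside 6.5% of all genes. The Nrf2 target list had 7 of 9 lower at PND1 to PND4 (8.39% of all genes) and 7 of 9 lower at the 7 other ages (2.95%).

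Cell type markers were compared at the same ages. Macrophage markers were lower in knockout in 6 of 7 at PND1 to PND4, beside 8.39% of all genes. Their mean level there was 8.66 to 9.30 against 9.00 to 10.18 in wild type. At the other ages 0 of 7 were lower (2.95% of all genes) and 1 was higher (Chil3, 1.08, beside 3.55% of all genes). The part of these cells in the lower Trim5, Trim34a and Trim30d was not tested. T cell and thymus markers ran from 4.60 to 11.94 in knockout and from 4.70 to 7.51 in wild type at these ages, and their part in the differences was not tested. Erythroid markers had 1 of 5 lower (8.39% of all genes) and ciliated cell markers 1 of 3 higher (7.84%) at PND1 to PND4. Of the heart, skeletal muscle, squamous, neuronal and lung epithelium lists 0 genes passed there, beside 16.2% of all genes.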

How the data were processed

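Lung RNA of 66 mouse samples was measured on Affymetrix arrays. Per the labels, RNA came from lung homogenates and was biotin-labelled after cDNA synthesis. The deposited table holds intensities on a linear scale (0.0326 to 61000), and GCOS is the tool that the submitters' processing notes name for the authors' step (its version is not given in the sources used here). No detection calls were used here, and the number of arrays limits the precision. Samples were grouped by the genotype and age in their titles.

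Intensities of all 66 arrays were quantile-normalized and log2(signal + 16) was fitted with limma 3.58.1 in R 4.3.3, with 1 mean for each of 22 groups, no covariate and an intensity trend (44 residual and 6.69 prior degrees of freedom). Benjamini-Hochberg adjustment ran over 45037 probe sets after 64 control probe sets were left out, at a threshold of 0.05. The shares of all genes given beside counts are over 18193 genes, each by its brightest probe set. Symbols came from the platform annotation: 34945 probe sets had 1 symbol, 932 several and 9160 none, and members were named from those with 1. Gene order, names and promoter windows came from RefSeq GRCm38.p6, and 47 of 58 members had a window. Plots used matplotlib 3.10.9 (Python 3.11.15). The fit was tested on simulated data.

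Members and gene lists were chosen with earlier results of these data known. Named members were the 10 with the widest change of the genotype difference between the 2 groups of ages, the largest rises and falls of each age step (4 each in wild type, 2 each in knockout), the TIF1 members, the chromosome 7 cluster with Trim68 and Trim21, neighbours with a size of at least 1 and list genes past the test. Alternatives were the normalization, the pseudocount (1 and 64), a filter on dim probe sets, array weights, no intensity trend, each array set alone, the mean of all probe sets of a gene, each library left out and the replicate number as a block. Among 33 same-numbered pairs the correlation of deviations from group means ran from -0.18 to 0.21, with 1 over 0.1, so the numbers did not pair the samples.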

Additional observations from a re-analysis of the deposited data

Results flagged for a closer look

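These members had a knockout minus wild-type difference at PND1 to PND4 that stood apart from the difference at the 7 other ages. The family was chosen on this contrast, so each value, as the first difference minus the second on the log2(signal + 16) scale, is a description. On chromosome 7 the value was 4.73 for Trim12c, 2.21 for Trim68, -2.85 for Trim5, -2.54 for Trim34a, -1.58 for Trim30d and -0.81 for Trim6. Elsewhere it was 0.44 for Trim32, 0.40 for Trim8, -0.35 for Trim2 and -0.24 for Trim41. They are 10 of 58 members, beside 12.6% of all genes in the same fit. Trim63 was further apart (-1.25 ± 0.47) without being among them. No group here has 4 or more samples, so no systematic screen of single libraries for outlying values was run. Knockout PND4 replicate 1 was examined after its values were seen, and each library was left out in turn.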

How the results depend on the processing

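Under the alternatives planned, no result of the tests or named members changed direction. With the knockout labels of E17.5 and E18.5 exchanged, an alternative chosen after seeing the data, Trim34a at E17.5 turned from 0.52 to -0.40, and its dimmer probe set opposes the brightest at PND1 to PND4. Over the 7 other ages the count of members with a genotype difference, 0 as reported, was 1 as deposited, 1 with a pseudocount of 1, 1 with those arrays alone and 1 with the mean of probe sets, 2 with the filter on dim probe sets, 5 with array weights and 7 with array medians subtracted. At PND1 to PND4 it was 9 in place of 14 with the filter, which kept 34 of the 58 members. The wild-type step from PND1 to PND4 gave 2 as deposited and 5 with medians subtracted in place of 8, wild-type age over PND1 to PND4 gave 13 in place of 6 with array weights, and the knockout step from PND1 to PND4 gave 5 in place of 3 with the mean of probe sets. The causes were not tested.

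With each library left out in turn, the counts ran as follows. Genotype gave 11 to 14 members at PND1 to PND4 and 0 to 2 at the 7 other ages, where 14 of 42 fits gave more than 0. Wild-type age gave 31 to 34 over the 7 ages and 2 to 8 over PND1 to PND4, which moved without wild-type PND1 replicates 1 and 3. The wild-type steps gave 18 to 21 from E15.5 to PND0, 11 to 15 from PND0 to PND42 and 4 to 5 from PND1 to PND4. The knockout steps gave 17 to 20, 20 to 24 and 2 to 3. The replicate number as a replicate block gave 22, 25 and 2 for the knockout steps and left every other count as it was.

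The size of the largest differences depended on the scale: with pseudocounts of 64 and 1, Trim12c at PND1 to PND4 was 3.15 and 6.98, Trim5 -1.73 and -4.21, Trim34a -1.81 and -2.93 and Trim68 1.51 and 2.62. Dim members such as Trim12c in wild type lie near the floor of the scale, which limits the ratio that can be read from them.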
